A study of Drosophila melanogaster with 18 samples.

Results

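The cleavage and polyadenylation complex makes the 3′ end of nearly every messenger RNA. The 10 of its genes examined here in *Drosophila melanogaster* were *Cpsf160*, *Clp*, *Fip1*, *Cpsf73*, *Cpsf100*, *Sym*, *CstF50*, *CstF64*, *su(f)* and *hrg*. They were chosen by gene symbol as subunits of the complex, and all 10 were found among the 17575 genes counted. Total RNA, depleted of ribosomal RNA, was sequenced from testes of males aged 1 to 3 days and reared at 25 °C. The *modulo* mutant carried the allele pair modL8/mod07570 (3 biological replicates), and the control was mod07570/+ (3 biological replicates). Both genotypes thus carried the mod07570 allele. The control, which is called wt in the sample labels, was a heterozygote, and no strain free of *modulo* alleles was measured. Each replicate was sequenced on 3 lanes, which were summed.

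As background, polyadenylation couples a cut in the nascent transcript to the addition of a poly(A) tail. In mammals, the cleavage and polyadenylation specificity factor (CPSF) reads the poly(A) signal through one group of subunits and cuts the RNA through another, while the cleavage stimulation factor (CstF) binds the GU-rich element downstream of the cut. Poly(A) polymerase then extends the free end. The amount of CstF64 is known in mammalian B cells to influence which of several poly(A) sites is used, and many genes expressed in the fly and mammalian testis use sites closer to the coding region than in other tissues.

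The mutated gene itself was examined first. *mod* had 196, 182 and 121 normalized counts in the *modulo* mutant, against 2063, 1963 and 2109 in the control, where counts were scaled for library size by edgeR's TMM factors. Its log2 fold change, mutant over control, was -3.62 (SE 0.18, adjusted p = 4.13e-05 by the quasi-likelihood test of edgeR, with p-values adjusted after Benjamini and Hochberg over all genes tested), and every library matched its label. Between 87119206 and 107435749 read pairs were counted per replicate. The 10 genes had 633 to 7609 counts in each replicate, for which counting error alone is 1.15% to 3.97% of the value. All therefore passed the filter on low counts in both genotypes.

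Of the 10 genes, 2 were called higher in the *modulo* mutant at an adjusted p under 0.05, namely *CstF50* and *CstF64*, and 0 were called lower. Over all 14059 genes tested, 14.5% were called higher and 17.8% lower, so a count of 2 of 10 lies near the background. At an unadjusted p under 0.05, 3 were higher and 0 lower. The share of all genes at that threshold was not computed, but on 3R 652 of 3409 genes were higher. DESeq2 called 3 of the 10 higher, against 17.6% of all genes. The log2 fold change was above 0 in 9 of the 10, with a median of 0.22, against 0.02 for all genes tested. Over the alternative settings the number above 0 was 6 to 10. It was 6 without mutant replicate 1, where the median of the 10 was 0.083, and also 6 without control replicate 3, under scaling to total counts and under a stricter filter on low counts. In 4 of the 10 the lowest of the mutant replicates exceeded the highest of the controls, as it did in 23.2% of all genes. Because whole testes were sequenced, a change in the number of cells that express a gene and a change in RNA per cell cannot be told apart.

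**Figure D1:**
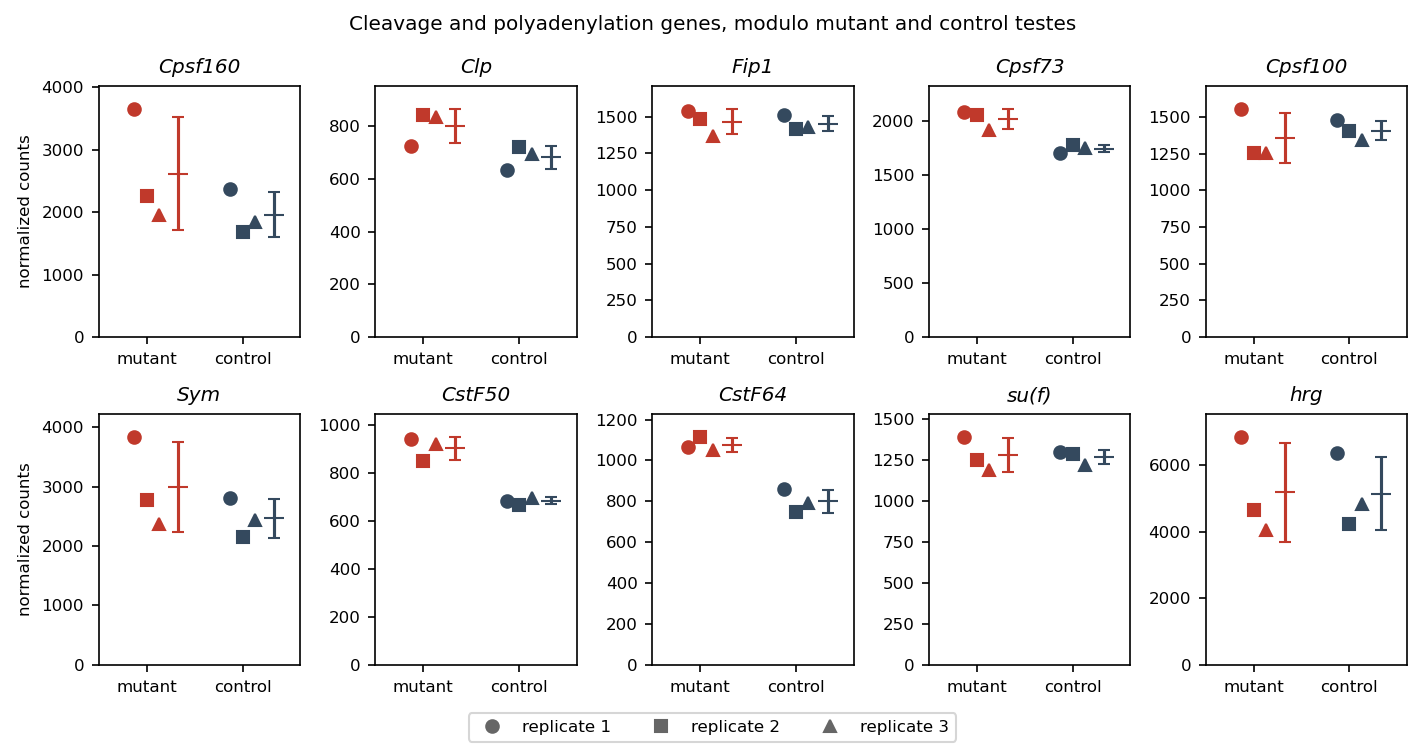
Normalized counts (y axis, each panel from 0) of the 10 cleavage and polyadenylation genes in *modulo* mutant and control testes. Symbols are the 3 replicates of each genotype, with the mean and SD beside them. *Clp*, *Cpsf73*, *CstF50* and *CstF64* show no overlap between the genotypes, whereas replicate 1 stands above the others in both genotypes for *Sym*, *hrg* and *Cpsf160*.

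By edgeR without a block, CstF was the module in which the test was passed, by *CstF50* and *CstF64* but not by *su(f)*. Under other settings given below, genes of CPSF passed as well. *CstF50* (FBgn0039867; 3R, 31735503 to 31736963, minus strand) encodes the WD40-repeat subunit. It had 940.1, 848 and 918 normalized counts in the *modulo* mutant, against 684, 667 and 696 in the control. The lowest mutant replicate was thus well above the highest control replicate. The fold was 1.32 (log2 fold change 0.40, SE 0.081, 95% interval 0.21 to 0.60, adjusted p = 0.00979, edgeR), and the gene was called in 19 of 19 alternative settings.

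*CstF64* (FBgn0027841; 3R, 18659618 to 18661126, plus strand) encodes the subunit that in mammals touches the GU-rich element. Its values were 1064, 1117 and 1052 normalized counts in the *modulo* mutant, and 859.6, 748 and 794 in the control. Again the genotypes did not overlap. The fold was 1.35 (log2 fold change 0.43, SE 0.087, 95% interval 0.22 to 0.63, adjusted p = 0.00985, edgeR). This call was lost without mutant replicate 2 (log2 fold change 0.40, adjusted p = 0.0638, edgeR) and without control replicate 3 (0.42, adjusted p = 0.0512), while the size of the change was close to that with all replicates.

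*su(f)*, suppressor of forked (FBgn0003559; X, 23096771 to 23101431, plus strand), is the fly CstF77, on which the other subunits assemble. It had 1394, 1252 and 1192 normalized counts in the *modulo* mutant, against 1299, 1286 and 1222 in the control, and the genotypes overlapped. The log2 fold change was 0.01, with a 95% interval of -0.20 to 0.22 (adjusted p = 0.93, edgeR). That interval leaves out the estimates for *CstF50* and *CstF64*. Its upper end of 0.2247 nevertheless lies above the lower ends of their intervals, 0.21 and 0.2232. With the gene length trend removed, *su(f)* was at 0.11 (adjusted p = 0.297, edgeR), *CstF50* at 0.44 and *CstF64* at 0.47.

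The balance within CstF was followed by the log2 ratio of subunits in each library, which does not depend on scaling between libraries. *CstF50* over *su(f)* was -0.57, -0.56 and -0.38 in the *modulo* mutant, against -0.93, -0.95 and -0.81 in the control. *CstF64* over *su(f)* was -0.39, -0.17 and -0.18 in the *modulo* mutant, against -0.60, -0.78 and -0.62 in the control. Both ratios were higher in every mutant library than in any control library, by 0.39 and 0.42 on average. *CstF50* over *CstF64* differed by -0.03 (exact two-sided permutation test, p = 0.6). With 3 against 3 libraries the smallest p that an exact permutation test allows is 0.1, which both ratios to *su(f)* reached. Adjusted over the 9 ratios computed within modules, it was 0.3. The ratios were chosen after the values of the genes had been seen.

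The chromosomal surroundings of the 2 called genes were also examined, since *mod* lies on the same arm (3R, 32052060 to 32054974) and *CstF50* is 315.1 kb from it. Among the 30 other tested genes within 100000 bases of *CstF50*, 0 were called higher and 6 lower (edgeR), with a median log2 fold change of 0.03. At an unadjusted p under 0.05, 1 was higher, and DESeq2 called 0 higher. Around *CstF64*, 2 of 30 were called higher and 5 lower (edgeR), with a median of 0.02. There 3 were higher at an unadjusted p under 0.05, and DESeq2 called 3 higher. These 30 include *Cpsf73*. On all of 3R, 425 of 3409 genes were called higher and 711 lower, with a median of -0.02. The 6 cleavage genes on 3R had a median of 0.25 and the 4 elsewhere 0.12. The part of chromosomal position in these values was not tested.

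The nuclease side of CPSF comprised *Cpsf73*, *Cpsf100* and *Sym*, and 0 of these 3 passed the test in either direction (edgeR; 1 was higher at an unadjusted p under 0.05 and by DESeq2). *Cpsf73* (FBgn0261065; 3R, 18661121 to 18663552, minus strand) encodes the endonuclease. It had 2082, 2054 and 1909 normalized counts in the *modulo* mutant, against 1704, 1772 and 1746 in the control. The genotypes did not overlap. Its log2 fold change was 0.21 (SE 0.076, 95% interval 0.03 to 0.39, adjusted p = 0.0749, edgeR), and under DESeq2 it passed (0.21, adjusted p = 0.0269). *Cpsf73* and *CstF64* are convergent neighbours whose annotated exons share 6 bases on opposite strands, and reads were assigned by strand.

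*Cpsf100* (FBgn0027873; 3R, 29034573 to 29037062, plus strand) encodes the catalytically inactive partner of the nuclease. It had 1556, 1257 and 1256 normalized counts in the *modulo* mutant, against 1478, 1402 and 1343 in the control. Replicate 1 was highest in each genotype, and the other mutant replicates were below every control replicate. The log2 fold change was -0.05 (95% interval -0.31 to 0.21, adjusted p = 0.744, edgeR), and -0.16 without mutant replicate 1. The log2 ratio of *Cpsf73* to *Cpsf100* was 0.42, 0.71 and 0.60 in the *modulo* mutant, against 0.21, 0.34 and 0.38 in the control. This was the third of the 9 ratios without overlap (difference 0.27, exact two-sided permutation test, p = 0.1, adjusted 0.3).

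*Sym* (FBgn0037371; 3R, 5738178 to 5742476, minus strand) encodes symplekin, the scaffold that holds the nuclease pair and in flies also serves histone mRNA processing. It had 3841, 2777 and 2378 normalized counts in the *modulo* mutant, against 2815, 2156 and 2432 in the control. Replicate 1 was highest in both genotypes, and the ranges overlapped. *Sym* had a log2 fold change of 0.28 (SE 0.19, 95% interval -0.17 to 0.73, adjusted p = 0.303, edgeR), which was 0.065 without mutant replicate 1.

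On the side of CPSF that reads the poly(A) signal, *Cpsf160*, *Clp* and *Fip1* did not pass the test either, by edgeR, by DESeq2 or at an unadjusted p under 0.05. *Cpsf160* (FBgn0024698; 2R, 14497347 to 14503488, minus strand) encodes the large scaffold of this side. It had 3658, 2255 and 1951 normalized counts in the *modulo* mutant, against 2367, 1688 and 1838 in the control. A single mutant library was far above the rest, so that the log2 fold change of 0.42 had an SE of 0.25 (95% interval -0.18 to 1.01, adjusted p = 0.249, edgeR). Without mutant replicate 1 it was 0.10. With the replicate number as a block, the log2 fold change was 0.38 and passed the test (adjusted p = 0.0237, edgeR). Each mutant library was above the control library of its own number. Under that fit 3 of the 10 genes were called higher, against 22.2% of all genes.

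*Clp* (FBgn0015621; 2L, 819964 to 821209, plus strand) is the fly CPSF30, a zinc finger protein that in mammals contacts the signal. It had 727, 843 and 836 normalized counts in the *modulo* mutant, against 635, 720 and 695 in the control. The lowest mutant value was only slightly above the highest control value, and the log2 fold change was 0.23 (SE 0.098, 95% interval -0.0017 to 0.46, adjusted p = 0.117, edgeR). It passed without mutant replicate 1 (0.30, adjusted p = 0.0381).

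*Fip1* (FBgn0037255; 3R, 4485008 to 4487677, plus strand) encodes the subunit that in yeast and mammals bridges CPSF and poly(A) polymerase. It had 1542, 1487 and 1372 normalized counts in the *modulo* mutant, against 1514, 1415 and 1433 in the control. The control range lay inside the mutant range, with a log2 fold change of 0.01 (95% interval -0.18 to 0.21, adjusted p = 0.918, edgeR).

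*hrg*, hiiragi (FBgn0015949; 2R, 19663919 to 19669832, minus strand), encodes the canonical nuclear poly(A) polymerase. It had 6858, 4653 and 4038 normalized counts in the *modulo* mutant, against 6377, 4228 and 4839 in the control. Replicate 1 was far above the others in both genotypes, and the ranges overlapped widely. Its log2 fold change was 0.01, with a 95% interval of -0.54 to 0.56 (SE 0.23, adjusted p = 0.978, edgeR). With the replicate number as a block it was -0.0053, with a smaller SE of 0.094 (adjusted p = 0.968, edgeR).

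**Figure D2:**
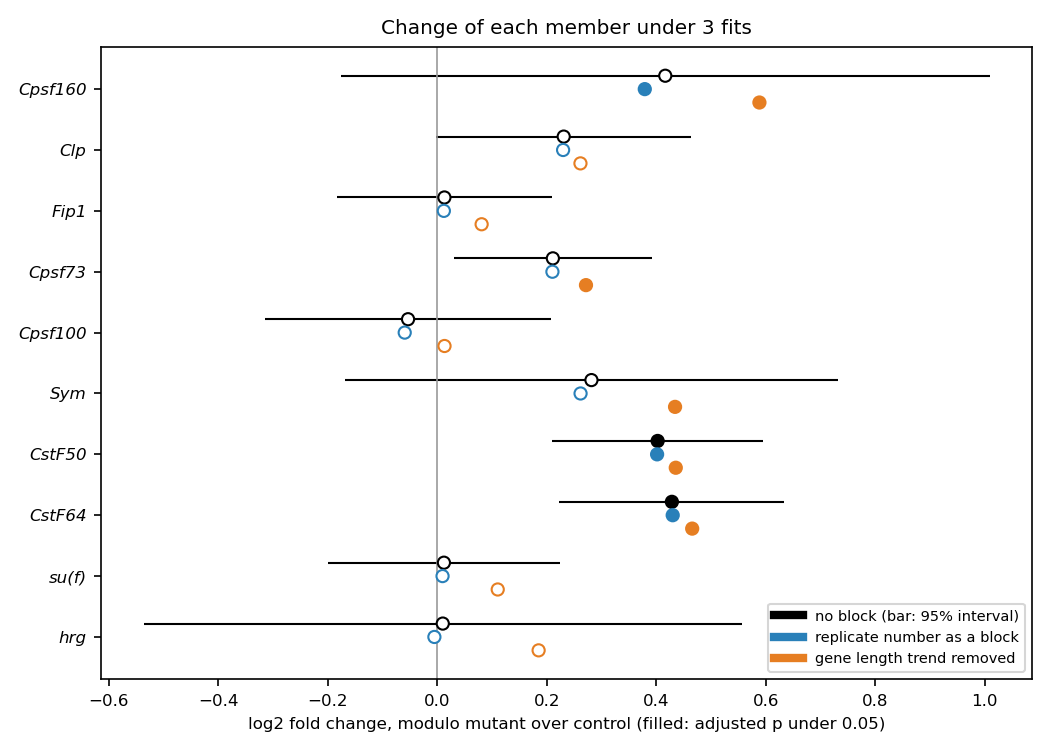
Log2 fold change, *modulo* mutant over control, of each of the 10 genes (x axis) without a replicate block (black, with the 95% interval), with the replicate number as a block (blue), and with the gene length trend removed (orange); filled points have an adjusted p under 0.05. *CstF50* and *CstF64* are filled in all 3 fits, at 0.40 to 0.47, whereas *Fip1*, *Cpsf100*, *su(f)* and *hrg* are open in all 3.

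The 10 genes differed widely in how well their replicates agreed, and the long ones agreed least. The SD between mutant replicates was 34.7% of the mean for *Cpsf160*, 28.6% for *hrg* and 25.2% for *Sym*, the 3 genes with more than 3900 bases of annotated exons, and in the control it was 18.2%, 21.5% and 13.4% in the same order. In the 7 shorter genes it was 3.20% to 12.7% in the *modulo* mutant and 1.97% to 6.98% in the control. Among 8910 genes with a mean of at least 500 normalized counts, the median was 10.7% in the *modulo* mutant and 7.78% in the control. The spread of the long genes was therefore between replicates and larger than the counting error given above.

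**Figure D3:**
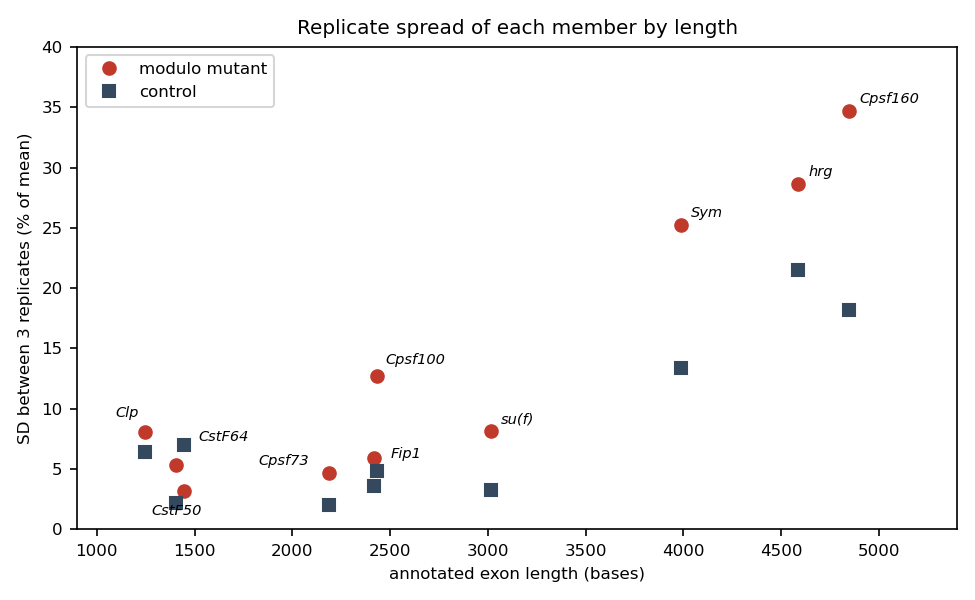
SD between the 3 replicates as a percent of the mean (y axis) against annotated exon length in bases (x axis) for the 10 genes, with the *modulo* mutant as red circles and the control as dark squares; gene names stand at the mutant points. *Sym*, *hrg* and *Cpsf160* lie at 25.2% to 34.7% in the *modulo* mutant, and the shorter genes at 12.7% or less.

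The same drift with length was present across the transcriptome. The 2172 genes with exons over 4000 bases deviated from their mean over the 6 libraries by a median of 0.14, -0.11 and -0.23 on the log2 scale in mutant replicates 1, 2 and 3, against 0.19, -0.03 and 0.02 in the control replicates. The 3963 genes under 1000 bases deviated in the opposite direction in every library except control replicate 3, by -0.10, 0.08 and 0.17 in the *modulo* mutant, against -0.14, 0.02 and 0.0017 in the control. The part of RNA quality in this drift was not tested. When the trend over length was removed from each library, 5 of the 10 genes were called higher, against 23.9% of all genes. *Cpsf160* (log2 fold change 0.59, adjusted p = 0.0267, edgeR), *Sym* (0.43, adjusted p = 0.0287) and *Cpsf73* (0.27, adjusted p = 0.0233) then passed beside *CstF50* and *CstF64*. This correction also raised the median of all genes to 0.11, against 0.02 without it. With the block and the correction together, a fit chosen after seeing the data, 6 were called higher, *Clp* being the sixth (0.26, adjusted p = 0.0265), against 32.2% of all genes.

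**Figure D4:**
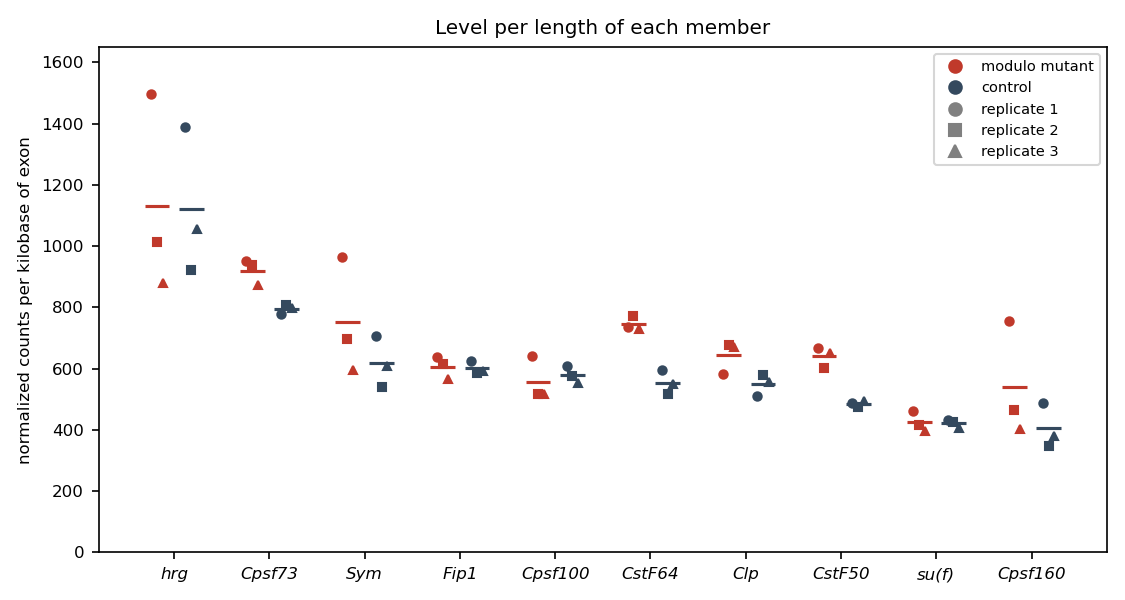
Normalized counts per kilobase of annotated exon (y axis, from 0) of the 10 genes, with single replicates (symbols) and means (bars) of the *modulo* mutant on the left of each pair and of the control on the right. *hrg* is highest in both genotypes at 1130 and 1122, and *CstF50* and *CstF64* reach 641 and 745 in the *modulo* mutant, against 485 and 554 in the control.

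Per length, the 10 genes were expressed within a narrow range. The highest mean level was 2.66 times the lowest in the *modulo* mutant and 2.77 times in the control. Within single libraries, each gene ranked between the 37.8th and 63.4th percentile of the 11964 tested protein-coding genes with a length. The polymerase gene *hrg* was highest, at 1130 ± 323 normalized counts per kilobase in the *modulo* mutant and 1122 ± 241 in the control (SD, n = 3 each). *Cpsf73* came next, with 920.0 ± 42.5 per kilobase in the *modulo* mutant and 795 ± 15.7 in the control. *Sym*, *Fip1*, *Cpsf100*, *CstF64* and *Clp* followed in the control with means of 548 to 619 per kilobase, and neighbours in that order did not differ beyond their SDs. *CstF50* (641 ± 34.3 per kilobase in the *modulo* mutant and 485 ± 10.4 in the control) came below them in the control. *su(f)* (425 ± 34.5 per kilobase in the *modulo* mutant and 421 ± 13.6 in the control) and *Cpsf160* (541 ± 188 and 405 ± 73.7 in the same order) were lowest in the control and differed by less than the SD of *Cpsf160* there. *CstF64*, at 745 ± 23.8 per kilobase in the *modulo* mutant and 554 ± 38.7 in the control, was the fourth highest in the mutant and the sixth in the control.

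Summed per length, CstF made up 23.7%, 26.7% and 28.3% of the level of the 10 genes in the *modulo* mutant, against 22.8%, 24.5% and 24.2% in the control. The ranges overlapped between the genotypes, but within each replicate number the share was higher in the *modulo* mutant. *hrg* took 18.9%, 15.1% and 14.01% in the *modulo* mutant, against 21.0%, 16.0% and 17.6% in the control, with replicate 1 highest in both and the mutant share lower within each replicate number. These shares are parts of one sum and were not tested. *Cpsf160*, *Clp* and *Fip1* together held 25.0% to 26.2% in the *modulo* mutant and 24.5% to 26.2% in the control. The nuclease side held 31.6% to 32.4% and 31.6% to 33.4% in the same order. *Wdr33*, a CPSF subunit described below, was not among the 10 genes and is not in these sums.

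Genes of RNA 3′ end formation outside the 10 were then counted, among them *Wdr33* of CPSF. Of 10 tested genes for other cleavage and polyadenylation factors, 1 was called higher in the *modulo* mutant and 0 lower, against 14.5% and 17.8% of all genes. Their median log2 fold change was 0.12. At an unadjusted p under 0.05, 4 were higher and 0 lower, and the share of all genes was not computed. DESeq2 called 4 higher and 0 lower, where 17.6% of all genes were called higher. The called gene was *cbc*, the fly homologue of the RNA kinase CLP1 of cleavage factor II, which had 3690, 4534 and 5179 normalized counts in the *modulo* mutant, against 2840, 3254 and 3196 in the control, without overlap. Its log2 fold change was 0.53 (SE 0.14, adjusted p = 0.0239, edgeR). *Wdr33*, the subunit of CPSF that in mammals reads the poly(A) signal together with CPSF30, had a log2 fold change of 0.20 (adjusted p = 0.097, edgeR). Its control mean of 2014 normalized counts per kilobase was above that of *hrg* (1122), the highest of the 10 genes. *Pabp2*, the nuclear poly(A) binding protein, had a log2 fold change of 0.11 (adjusted p = 0.457, edgeR). With the replicate block 3 of the 10 were called higher, against 22.2% of all genes. The added genes were *snama* (0.60, adjusted p = 0.00181, edgeR) and *Rat1* (0.44, adjusted p = 0.0236), both named after their values were seen. *snama* is the homologue of RBBP6 and *Rat1* the nuclear exonuclease that degrades RNA downstream of the cut.

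Histone mRNAs are cut by the same nuclease but receive no tail. Of 5 tested genes particular to that reaction, 0 were called in either direction (edgeR), with a median log2 fold change of 0.21. At an unadjusted p under 0.05, 1 was higher and 0 lower. DESeq2 called 1 higher (against 17.6% of all genes), and so did the replicate block (against 22.2%). Under the block it was *Lsm10*, a protein of the U7 particle, at 0.40 (adjusted p = 0.0426, edgeR, named after its values were seen). *Slbp*, the stem-loop binding protein, had a log2 fold change of 0.08 (adjusted p = 0.508, edgeR), *FLASH* 0.21 (adjusted p = 0.412) and *mute* 0.25 (adjusted p = 0.531).

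The Integrator complex, which cuts small nuclear RNAs and promoter-proximal transcripts, uses a nuclease pair related to Cpsf73 and Cpsf100. Of its 13 tested genes, 6 were called higher and 0 lower by edgeR and by DESeq2 (without adjustment, 6 had p under 0.05 upwards and 0 downwards), against 14.5% and 17.8% of all genes, and the median log2 fold change was 0.29. *IntS11*, the relative of *Cpsf73*, had 601, 657 and 638 normalized counts in the *modulo* mutant, against 432, 416 and 447 in the control (log2 fold change 0.55, SE 0.084, adjusted p = 0.00309, edgeR). *IntS9*, the relative of *Cpsf100*, had 618, 591 and 522 in the *modulo* mutant, against 439, 329 and 396 in the control (0.57, SE 0.13, adjusted p = 0.0163). Neither gene overlapped between the genotypes. *Cpsf73* did not overlap either, and *Cpsf73* and *Cpsf100* passed the edgeR test neither without nor with the block. The difference between the pairs was not tested. The other called subunits were *IntS14* (0.51, adjusted p = 0.00681, edgeR), *asun* (0.42, adjusted p = 0.0229), *IntS2* (0.29, adjusted p = 0.0338) and *defl* (0.26, adjusted p = 0.0373).

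The 3 Integrator genes with the highest levels per length did not pass. In *omd*, *IntS3* and *IntS1* the values varied in direction, with a log2 fold change of 0.02 for *omd* (adjusted p = 0.838, edgeR), 0.21 for *IntS3* (adjusted p = 0.243) and -0.45 for *IntS1* (adjusted p = 0.164). With the replicate block 7 Integrator genes were called higher, against 22.2% of all genes, and 1 lower. The lower one was *IntS1* (-0.48, adjusted p = 0.00449, edgeR).

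Proteins of the ELAV family bind U-rich RNA, and in fly neurons they favour distal poly(A) sites. Of the 3 genes, 0 were called higher and 2 lower by edgeR, against 14.5% and 17.8% of all genes. DESeq2 called the same numbers, and 0 were higher at an unadjusted p under 0.05. *Rbp9* had 10272, 11756 and 11594 normalized counts in the *modulo* mutant, against 17231, 19986 and 18540 in the control, without overlap (log2 fold change -0.73, SE 0.094, adjusted p = 0.00151, edgeR). *fne*, with only 4 to 39 counts in each library, had a log2 fold change of -2.06 (SE 0.51, adjusted p = 0.0214, edgeR), and *elav* one of 0.18 (adjusted p = 0.295). With the length trend removed, *Rbp9* no longer passed (-0.49, adjusted p = 0.0654, edgeR).

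**Figure D5:**
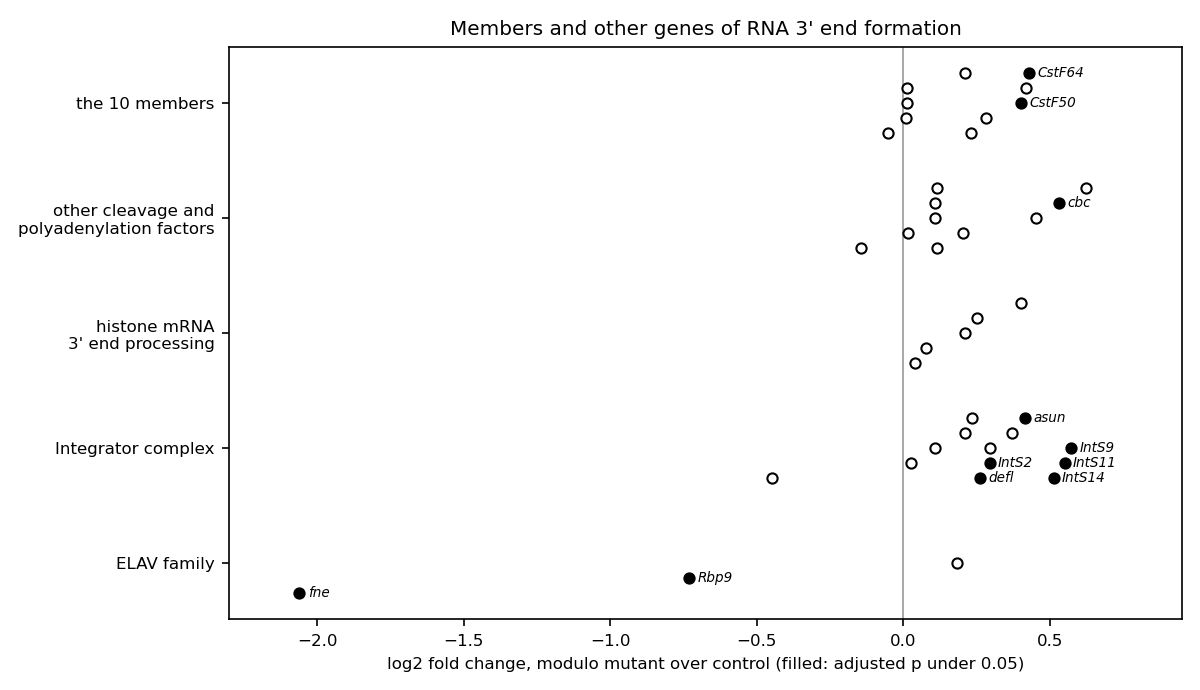
Log2 fold change, *modulo* mutant over control (x axis), of the 10 genes and of each tested gene in 4 related lists (rows). Filled points have an adjusted p under 0.05 without a block. The filled points are 2 of 10, 1 of 10, 0 of 5, 6 of 13 and 2 of 3 from the row of the 10 genes down, and those of the ELAV family lie below 0.

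Marker genes of the cell types in a dissected testis were measured in the same libraries. For comparison, edgeR called 14.5% of all genes higher and 17.8% lower. The replicate block called 22.2% of all genes higher, and DESeq2 17.6%. Somatic hub and cyst cell markers summed to 12707 to 13392 normalized counts in the *modulo* mutant and 14281 to 15078 in the control, without overlap. The largest parts of that sum were *eya*, which overlapped between the genotypes (log2 fold change -0.0985), and *Fas3*. Of the 7 markers, 2 were called higher (*tj* and *Wnt4*, each without overlap) and 1 lower (*Fas3*). With the replicate block 2 were higher and 3 lower, the added ones being *upd1* and *ptc*. Early germline markers summed to 13421 to 19219 in the *modulo* mutant and 13842 to 16299 in the control (1 of 5 higher, *aub*, and 0 lower). With the replicate block 3 of these 5 were called higher (*aub*, *bam* and *vas*) and 0 lower, DESeq2 called 2 higher and 0 lower, and an unadjusted p under 0.05 was reached by 3 upwards and 0 downwards. A further listed marker, *nos* (counted as *nanos*), was not among these 5. It had 881, 997 and 833 normalized counts in the *modulo* mutant, against 445, 476 and 591 in the control, without overlap. Its log2 fold change was 0.84 (adjusted p = 0.00354, edgeR). Markers added by the block were named after their values were seen. Spermatocyte markers summed to 117301 to 181707 in the *modulo* mutant and 145991 to 169556 in the control (1 of 9 higher, *mia*, and 1 lower, *topi*, and with the replicate block 2 higher, *mia* and *aly*, and 1 lower). That sum was mostly *bol* (81653 to 140631 in the *modulo* mutant and 108238 to 130037 in the control). The early germline sum was mostly *bgcn* (7453 to 11657 and 9116 to 11209 in the same order). For late spermatid transcripts the sums were 176030 to 200301 in the *modulo* mutant and 186664 to 190957 in the control (0 of 8 called by edgeR, 0 at an unadjusted p under 0.05 and 1 lower by DESeq2), and for the muscle sheath 39894 to 50837 and 41358 to 47160 in the same order (0 of 5 called by either tool, and 0 at an unadjusted p under 0.05). Accessory gland markers, from tissue that adjoins the testis, varied between libraries of one genotype, with sums of 9274 to 21488 in the *modulo* mutant and 4149 to 33303 in the control, and *Acp33A* (1 of 8 higher) was at 0 in 1 control library. The other listed markers were above 0 in every library. The part of cell composition in the values of *CstF50*, *CstF64* and the Integrator genes was not tested.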

How the data were processed

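Total RNA from testes of 3 *modulo* mutant and 3 control replicates was depleted of ribosomal RNA (KAPA HyperPrep, RiboErase) and sequenced in pairs. The authors mapped the pairs to BDGP6/dm6 with STAR 2.7.1a and counted them per FlyBase gene by strand with featureCounts, dividing pairs that mapped to several places. The values the authors deposited are therefore estimated counts per gene and lane, made by featureCounts without normalization, and need not be whole. The deposited table of the whole series repeats these lane files and was not used.

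Counts of the 3 lanes were summed per replicate and rounded. Genes reaching 10 counts in 3 or more of the 6 libraries (14059) were tested with edgeR 4.0.16 (glmQLFit and glmQLFTest, R 4.3.3, limma 3.58.1) after TMM scaling, with Benjamini-Hochberg adjustment over all of them and a threshold of 0.05. SEs were taken as the absolute log2 fold change over the square root of F. Intervals are 95%. Gene positions and exon lengths (available for 17512 genes) came from the BDGP6.54 annotation, and levels per length are TMM-normalized counts per kilobase. The alternatives were DESeq2 1.42.0, other scalings and filters, single lanes, unrounded sums, abundant RNAs left out, each replicate left out, a replicate block, and a loess trend over gene length (span 0.3) removed.

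Deviations from the genotype means correlated at 0.572, 0.591 and 0.17 between samples of the same number, and at -0.595 to 0.0884 between different numbers. The numbers, which come from the sample titles, were therefore taken as a possible pairing, weakest for replicate 3 (0.17). The main fit has no block, so its SEs include the variation between the numbers. Members and lists were chosen with earlier results of these data known. All 10 members, *mod*, and the listed genes that passed the test or were among the 3 highest levels of their list were named; others are marked. *Cpsf5*, *IntS8* and protein paralogs were not analysed here, and *snRNA:U7* was below the filter. *nos*, counted under the symbol *nanos*, was tested but left out of the marker sums and counts. P-values measure the spread between these biological replicates.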

Additional observations from a re-analysis of the deposited data

How the results depend on the processing

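Over 19 alternatives 275 values were recomputed, and 228 changed neither in sign nor in call or, for counts, stayed within 1.5 times. The number of the 10 genes called higher was 5 with the length trend removed, against 23.9% of all genes. It was 6 with the replicate block and length trend removed together (chosen after seeing the data), against 32.2% of all genes. When a replicate was left out it was 1 to 3, and the share of all genes was not computed. The low value was given by leaving out mutant replicate 2 or control replicate 3. With the length trend removed, the log2 fold change passed the threshold for *Cpsf160* (0.59), *Cpsf73* (0.27) and *Sym* (0.43), and with the block as well for *Cpsf160* (0.57), *Cpsf73* (0.27), *Sym* (0.43) and *Clp* (0.26). *Cpsf73* also passed under DESeq2 (0.21). With a replicate left out, *Cpsf160* ranged over 0.10 to 0.59, *Sym* over 0.065 to 0.42, *Cpsf100* over -0.16 to -0.0026, *Cpsf73* over 0.19 to 0.25, *CstF50* over 0.37 to 0.44, *Clp* over 0.18 to 0.30, *CstF64* over 0.38 to 0.48, *Fip1* over -0.022 to 0.057, *su(f)* over -0.052 to 0.059 and *hrg* over -0.24 to 0.19.

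Signs turned only for genes whose main value was near 0 and passed no test, besides the ranges above: under scaling to total counts for *Fip1* (-0.042), *su(f)* (-0.0425) and *hrg* (-0.0496), under the stricter filter of 50 counts in all 6 libraries for *Fip1* (-0.0105), *su(f)* (-0.011) and *hrg* (-0.0143), in single lanes for *Cpsf100* (0.0117, lane 1), *su(f)* (-0.0147, lane 1, and -0.0173, lane 2) and *hrg* (-0.0688, lane 3), and for *Cpsf100* with the length trend removed (0.0132) and with the block as well (0.0095). Scaling to total counts put the median of all genes at -0.04.

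With the replicate block, which treats the replicate numbers as pairs, *Cpsf160* passed (0.38) and *hrg* was at -0.0053. The block changed no other call among the 10 genes. Of the other cleavage factors, DESeq2 called 4 higher (17.6% of all genes), the block 3 (22.2%) and the length correction 5 (23.9%). Of the histone genes, 1 was called higher under each of these 3. For Integrator, 1 was called lower with the block. For the ELAV family, 1 was called higher (*elav*) and 1 lower (*fne*) with the length trend removed. The causes of these shifts were not tested. For *Cpsf160*, *Sym* and *hrg* the spread between replicates exceeded the counting error and limits the precision. For *Cpsf73* and *CstF50* the spread between control replicates (1.97% and 2.14%) was below the counting error. Between mutant replicates (4.62% and 5.35%) it was above that error.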
